A study of Homo sapiens with 2 samples.

Results

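Surface ligands read by natural killer and T cells, encoded by 10 genes, were described in a pancreatic cancer cell line with and without dihydroartemisinin (DHA). They were chosen by gene name from the deposited table, and all 10 were found among its 58735 genes. They are the NKG2D ligands MICA, MICB, ULBP1, ULBP2 and ULBP3, the DNAM-1 ligands PVR and NECTIN2, the PD-1 ligand CD274 (PD-L1), and the B7 family ligands CD276 (B7-H3) and VSIR (VISTA). The cells were SUIT-2, a human pancreatic adenocarcinoma line, in a highly metastatic derivative. RNA was sequenced from untreated cells (treatment label NC) and from cells given DHA, 1 library each. DHA is the active form to which artemisinin antimalarials are converted. The sources used here do not give the dose, the exposure time, or whether untreated cells received a vehicle. Paired values give the untreated library first, and coordinates are on GRCh38. Counted reads came to 15452609 without DHA and 14521101 with it. With 1 library per group no difference has a replicate check, no p-value was computed, and higher or lower always refers to these 2 libraries alone.

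NKG2D is an activating receptor of natural killer cells and many cytotoxic T cells, and its ligands are stress-induced relatives of MHC class I molecules. MICA and MICB are transmembrane proteins, whereas ULBP1 to ULBP3 are held mainly by a lipid anchor, and both kinds can be shed by proteases. DNAM-1 (CD226) activates the same cells on binding PVR or NECTIN2, and the inhibitory receptors TIGIT and CD96 compete for PVR. PD-L1 binds PD-1 and restrains T cells, and CD276 and VISTA are mainly described as inhibitory.

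Upstream sequences are shown for MICA and ULBP2, which had the highest ratios of the 10 genes, and for MICB, the close relative of MICA. They come from RefSeq on GRCh38.p14 and cover bases -250 to -61 before the RefSeq start of each gene, 5′ to 3′ on the plus strand. The positions are chr6:31403345-31403534 for MICA, chr6:31497895-31498084 for MICB and chr6:149941764-149941953 for ULBP2. None of the printed bases lies in a GENCODE exon of its gene. The RefSeq starts lie 3811 bases (MICA) and 3264 bases (MICB) downstream of the GENCODE start, so the MICA and MICB windows lie inside the GENCODE gene spans. Capitals mark matches to the motifs searched.
MICA: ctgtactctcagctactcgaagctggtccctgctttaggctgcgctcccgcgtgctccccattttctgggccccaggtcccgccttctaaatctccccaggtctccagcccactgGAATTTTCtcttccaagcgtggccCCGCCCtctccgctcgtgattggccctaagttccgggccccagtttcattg
MICB: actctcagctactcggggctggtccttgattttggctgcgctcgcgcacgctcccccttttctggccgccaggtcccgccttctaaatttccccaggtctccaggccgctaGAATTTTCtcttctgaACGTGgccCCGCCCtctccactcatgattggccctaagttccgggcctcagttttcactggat
ULBP2: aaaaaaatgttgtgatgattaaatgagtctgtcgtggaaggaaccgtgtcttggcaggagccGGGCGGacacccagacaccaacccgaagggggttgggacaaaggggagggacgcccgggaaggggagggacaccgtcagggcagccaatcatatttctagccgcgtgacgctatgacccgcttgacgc

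The capitals GAATTTTC in MICA and MICB match the heat shock element GAANNTTC (searched with TTCNNGAA, both strands), the motif of heat shock factors. This element was found in the 250 bases before the start of MICA and MICB, 2 of the 10 ligand genes, and in 11.7% of 27305 promoters of the same length. The first base of the match lay at -135 in MICA and at -139 in MICB. The capitals CCGCCC in MICA and MICB and GGGCGG in ULBP2 match the GC box (GGGCGG, both strands), found in 9 of the 10 genes and in 42.3% of all promoters. The core of the hypoxia response element (ACGTG, 18.7% of all promoters) matched in MICB and ULBP3. The AP-1 site TGANTCA (6.6%), the cyclic AMP response element TGACGTCA (1.8%), the CHOP and ATF4 composite element TGATGNAA (3.2%) and the TATA box TATAAA (11.1%) had no match in the windows of the 10 genes. The antioxidant response element TGACNNNGC (11.0%) matched in NECTIN2. The full 250-base windows of several genes reach into GENCODE exons of the gene, most for CD276 (170 bases), NECTIN2 (122), PVR (112) and MICB (59). The MICA and MICB windows were 82.7% identical over 254 alignment columns, against 46.0% over 272 columns for ULBP1 and ULBP2. These matches are descriptions of letters, and binding was not measured.

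Of the 10 ligand genes, MICA, ULBP2, PVR and CD274 were higher with DHA by at least 2-fold, and VSIR was lower by at least 2-fold. MICA and ULBP2 stood near 3-fold, PVR and CD274 at 2-fold and not called under every scaling, and MICB at 1.54-fold. A gene was called when its ratio reached 2-fold, its 95% counting interval excluded 1, and 50 or more reads were counted in either library. Among 12064 genes with that many reads, 6.72% were called higher and 10.3% lower. Of the 10 ligand genes, 4 were called higher and 1 lower. Their median log2 ratio was 0.52, beside 0.04 over all genes tested. All 10 reached 50 reads in at least 1 library, and 9 did so in both. CD274 reached the minimum through the DHA library alone, so its call rests in part on the group in which it was high. The intervals describe counting error alone: PCR copies of a molecule count as separate reads, and how far cultures vary was not measured. RNA came from bulk cells, in which fewer cells of a type and less RNA per cell cannot be told apart.

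**Figure D1:**
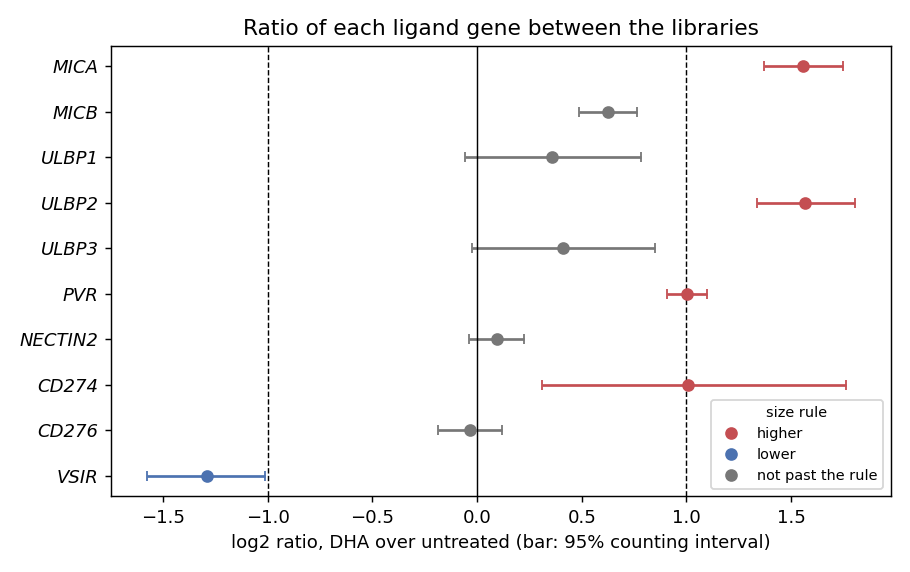
The log2 ratio, DHA over untreated (horizontal axis), is plotted for each of the 10 ligand genes, with its 95% counting interval as a bar, 1 library per group; dashed lines mark 2-fold. The bars of MICA, ULBP2 and VSIR lie wholly past 2-fold, and the points of PVR (1.00) and CD274 (1.01) lie at the line.

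**Figure D2:**
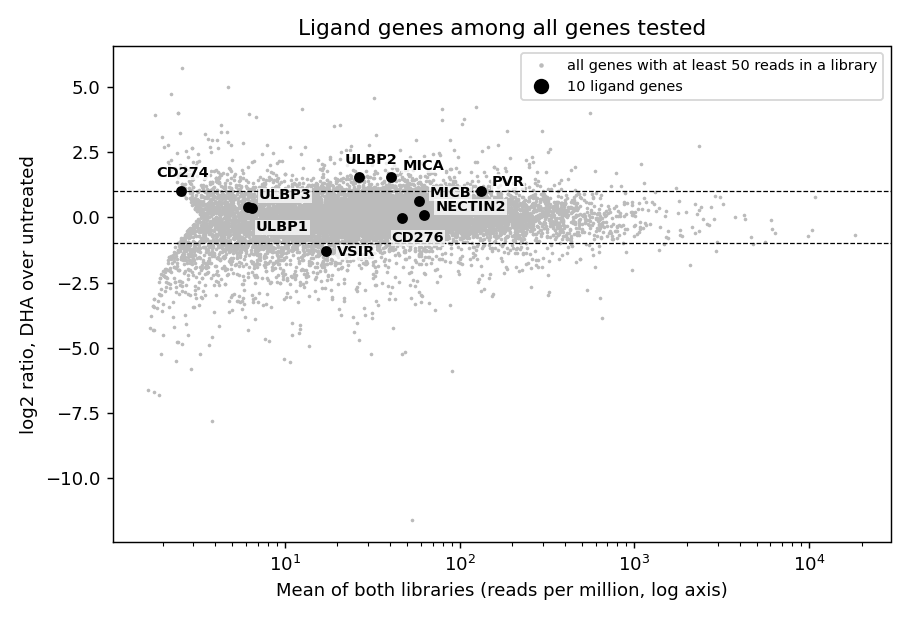
Each grey point is 1 of the 12064 genes with at least 50 reads in a library, plotted by its mean level in CPM (horizontal log axis) and its log2 ratio, DHA over untreated (vertical axis); black points are the 10 ligand genes. MICA and ULBP2 lie above the dashed 2-fold line and VSIR below the lower line, with the others between or at them.

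MICA (ENSG00000204520, chromosome 6, 31399784 to 31415315, plus strand, 7 exonic blocks) had 318 reads untreated and 886 with DHA. Its level rose from 20.7 to 60.8 CPM (TMM-scaled reads per 1000000), 2.94-fold (2.59 to 3.36), and the counting intervals of the levels did not overlap. Counted from the highest ratio, it stood at place 234 of the 12064 genes. MICB (ENSG00000204516, chromosome 6, 31494881 to 31511124, plus strand) was counted at 705 and 1030 reads, 45.8 and 70.7 CPM. Its ratio of 1.54 (1.40 to 1.70) was under 2-fold, although the interval excluded 1. MICA thus went from 31.1% (28.3 to 34.02, exact Clopper-Pearson interval) of the reads of this gene pair to 46.2% (43.99 to 48.5). This share does not depend on how the libraries are scaled. The MICA ratio was 1.91 times the MICB ratio (1.62 to 2.25). Of the 50-base windows of MICA transcripts, 1.9% also occur in MICB transcripts. The sources used here do not say how reads mapping to several places were treated.

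ULBP2 (ENSG00000131015, chromosome 6, 149942000 to 149949235, plus strand, 5 exonic blocks) had 206 reads untreated and 579 with DHA. It went from 13.4 to 39.7 CPM, 2.96-fold higher (2.53 to 3.50). Of its neighbours in the ULBP and RAET1 gene cluster, ULBP1 and ULBP3 did not pass the rule. RAET1E, RAET1G and RAET1L were under the read minimum. ULBP1 (ENSG00000111981, chromosome 6, 149964007 to 149973710, plus strand) was counted at 88 and 107 reads, a ratio of 1.28 (0.96 to 1.72). ULBP3 (ENSG00000131019, chromosome 6, 150063150 to 150069095, minus strand) had 81 and 102 reads, a ratio of 1.33 (0.98 to 1.80). The intervals of ULBP1 and ULBP3 hold 1 and stop short of 2, so that a ratio as high as that of ULBP2 lies outside their counting error. ULBP2 took 54.9% (49.7 to 60.0) of the reads of the 3 ULBP genes in the untreated library and 73.5% (70.2 to 76.5) in the DHA library. Its ratio was 2.31 times that of ULBP1 (1.65 to 3.23) and 2.23 times that of ULBP3 (1.58 to 3.15).

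ULBP2 has near-identical relatives, and 29.4% of its 50-base transcript windows also occur in RAET1L and 11.6% in RAET1G. These NKG2D ligand genes were counted at 3 and 4 reads (RAET1L) and at 43 and 24 reads (RAET1G). The RAET1G ratio was 0.59 (0.34 to 0.993), in the direction opposite to ULBP2. The assignment of reads common to them is not known, so the ULBP2 value is uncertain to that extent. RAET1E had 10 and 17 reads. The pseudogene RAET1K, which holds 12.4% of the 50-base windows of ULBP3 and 6.9% of those of ULBP1, had 15 and 16 reads. The ratios of MICA and ULBP2, which lie in separate clusters of chromosome 6, differed by less than counting error (MICA ratio 0.99 times the ULBP2 ratio, 0.80 to 1.22).

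Summed over the 5 NKG2D ligands, 1398 reads were counted without DHA and 2704 with it, 2.04-fold higher (1.91 to 2.18). This interval lies on both sides of 2-fold, and the ratio of the sum was computed under TMM scaling alone. Per length the sum went from 42.1 to 89.6 RPKM (CPM per kilobase of gene length).

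**Figure D3:**
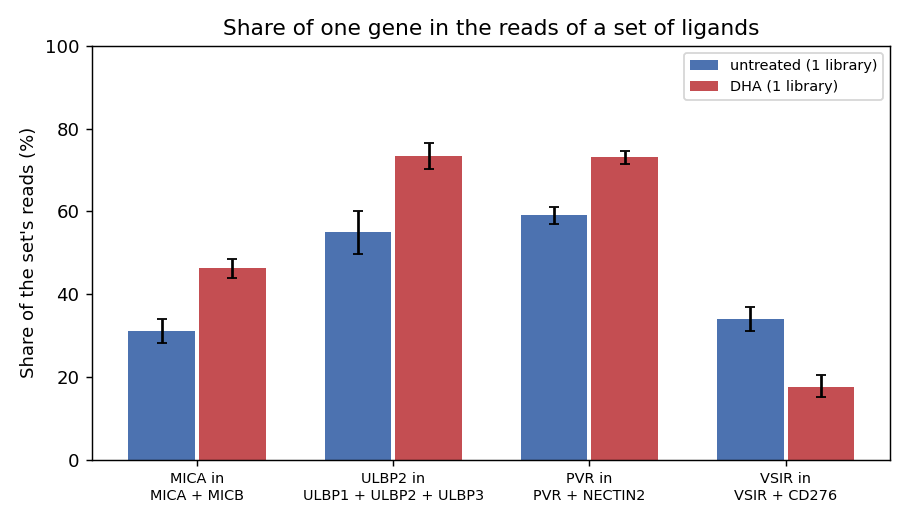
Bars give the share (percent, vertical axis from 0) of a set's reads that belong to 1 gene, in the untreated and the DHA library, with exact 95% binomial intervals as error bars. MICA, ULBP2 and PVR took a larger share in the DHA library, and VSIR fell from 34.02% to 17.7% of the reads of VSIR and CD276.

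PVR, the poliovirus receptor CD155 (ENSG00000073008, chromosome 19, 44643798 to 44663583, plus strand, 8 exonic blocks), had 1352 reads untreated and 2567 with DHA. It went from 87.8 to 176 CPM, 2.005-fold higher (1.88 to 2.14), so its interval lies on both sides of the 2-fold threshold. Under DESeq2 size factors and upper quartile scaling its log2 ratio was 0.96 and 0.94, under the threshold. NECTIN2, the adhesion molecule CD112 (ENSG00000130202, chromosome 19, 44846175 to 44889228, plus strand), was counted at 936 and 946 reads, 60.8 and 64.9 CPM. Its ratio of 1.07 (0.97 to 1.17) held 1 within counting error. The ligands of the shared receptor DNAM-1 thus differed, and the PVR ratio was 1.88 times the NECTIN2 ratio (1.68 to 2.10). PVR took 59.1% (57.04 to 61.1) of the reads of this pair untreated and 73.1% (71.6 to 74.5) with DHA.

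CD274 (ENSG00000120217, chromosome 9, 5450503 to 5470566, plus strand, 7 exonic blocks) had the lowest counts of the 10 genes, 26 reads untreated and 50 with DHA. These are 1.69 (1.10 to 2.47) and 3.43 (2.55 to 4.52) CPM, 2.01-fold higher with a wide interval of 1.24 to 3.40. The intervals of the levels did not overlap. Its call was lost with upper quartile scaling (log2 ratio 0.94), a pseudocount of 2 reads (0.97) and the size factors of DESeq2 (0.97). The gene for the other PD-1 ligand, PDCD1LG2 (PD-L2), had 0 reads untreated and 7 with DHA. Set against a floor of 3 untreated reads, the 7 reads would be 2.46-fold higher, a value for which no counting interval was computed. PDCD1LG2 was under the read minimum, and no lower bound on its ratio was computed.

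CD276 (ENSG00000103855, chromosome 15, 73683966 to 73714518, plus strand) was counted at 733 and 679 reads, 47.6 and 46.6 CPM. Its ratio of 0.98 (0.88 to 1.09) was the nearest to 1 of the 10 genes. VSIR (ENSG00000107738, chromosome 10, 71747559 to 71773498, minus strand, 8 exonic blocks) had 378 reads untreated and 146 with DHA. It went from 24.6 to 10.02 CPM, 2.45-fold lower (2.02 to 2.99). VSIR lies inside the CDH23 gene and shares no exonic base with it. The CD274 ratio was 2.08 times the CD276 ratio (1.25 to 3.51), and the CD276 ratio was 2.397 times the VSIR ratio (1.92 to 3.003). In all, 8 pairs of ligand genes were compared in this way, picked after the values had been seen. The interval held 1 for MICA against ULBP2 and for ULBP1 against ULBP3.

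Levels of different genes were compared per length, as RPKM (CPM divided by gene length in kilobases). In the untreated library PVR was highest at 24.96. MICB (16.4) and NECTIN2 (16.2) came next, then ULBP2 (9.92), MICA (8.66) and CD276 (8.59), then ULBP3 (5.33) and VSIR (4.79). Within each of these sets neighbours had overlapping counting intervals, and between sets they did not. ULBP1 (1.82) and CD274 (0.41) followed, each apart from its neighbour. In the DHA library PVR was again highest at 50.05, followed by ULBP2 (29.4), MICA (25.5) and MICB (25.3), whose neighbours overlapped. NECTIN2 (17.3) stood below them. CD276 (8.41) and ULBP3 (7.08) overlapped, as did ULBP1 (2.34) and VSIR (1.95), and CD274 (0.835) was lowest.

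**Figure D4:**
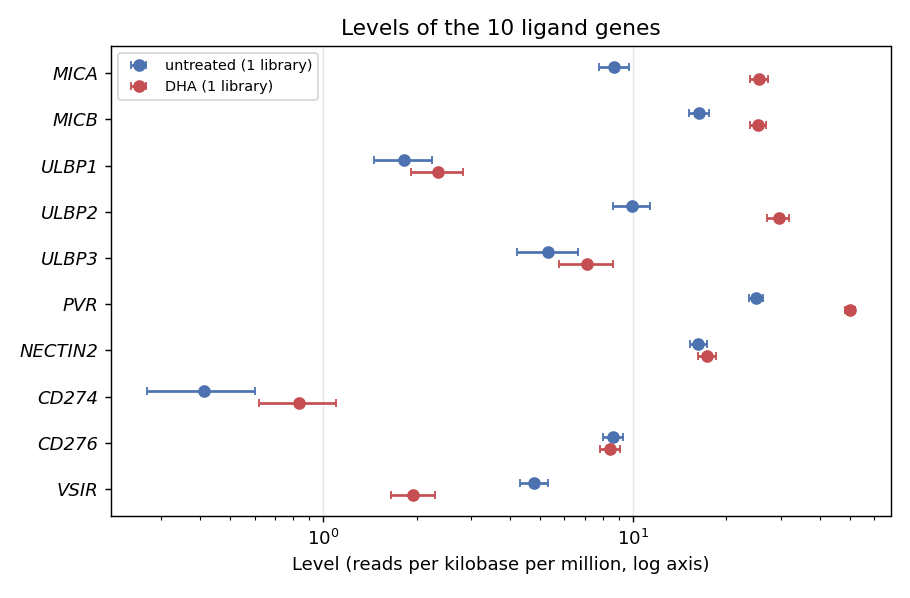
The level of each of the 10 ligand genes is plotted in RPKM (horizontal log axis) in the untreated and the DHA library, with exact 95% Poisson counting intervals as bars. PVR is highest and CD274 lowest in both libraries, and the points of NECTIN2 and CD276 nearly coincide.

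Receptor genes of natural killer and T cells, and lymphocyte marker genes, had few or no reads in both libraries. Of 17 receptor genes 13 had 0 reads in both libraries, among them those for NKG2D (KLRK1), TIGIT, CD96 and PD-1 (PDCD1). The floor of 3 reads is 0.195 (untreated) and 0.206 (DHA) CPM. Other genes on the same strand share 62.7% of the exon bases of KLRK1. How reads in shared bases were counted is not known, so its 0 sets no firm limit. DNAM-1 (CD226) had 2 and 0 reads. The highest counts of the list were 12 reads for PVRIG in the untreated library (another gene covers 80.9% of its exons) and 18 reads for LAG3 in the DHA library. Of 9 T and natural killer cell markers 7 were at 0 in both, CD3D, CD3E and NKG7 included, and the list summed to 5 and 3 reads. Of 6 myeloid markers 3 were at 0 in both libraries (sums of 15 and 10 reads). All 3 acinar markers, PRSS1, CPA1 and AMY2A, were at 0.

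Markers of duct and epithelium were abundant, with KRT8, KRT18, KRT19 and EPCAM called lower in the DHA library (KRT8 at 29850 and 11840 reads), and KRT7 at 49 and 26 reads. The summed level of these 5 markers was 3256 CPM untreated and 1309 with DHA, and the part of this shift in the ligand results was not tested. Fibroblast markers summed to 131 and 14 reads, with COL1A1 6.88-fold lower and DCN at 0. Endothelial markers summed to 281 and 57 reads, of which PECAM1 had 280 and 54, and CDH5 was at 0. The protocol text names retina as the tissue. Of 8 retina markers 5 were at 0 in both libraries, CRX and SAG included, while RPE65 had 96 and 74 reads.

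Other genes of the same recognition systems were taken from 9 lists. Without the 10 ligand genes they hold 84 genes, 61 of which reached 50 reads, and 8 of those were called higher and 7 lower. Over all 12064 genes with that many reads, 6.72% were called higher and 10.3% lower. Whether the lists differ from these shares was not tested. Among related nectins, which are adhesion molecules, 0 of the 4 with enough reads were called, with NECTIN1 at a log2 ratio of 0.34, NECTIN3 at -0.20 and CADM1, a ligand of the receptor CRTAM, at -0.71. In the B7 family the 1 further gene with enough reads, NCR3LG1 (B7-H6), was called higher. NCR3LG1 encodes a ligand of the activating receptor NKp30 and had 398 reads untreated and 863 with DHA, 2.29-fold higher (2.03 to 2.59). VTCN1, CD80 and CD86 were at 0 in both libraries.

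Of 5 other activating or adhesion ligands with enough reads, 1 was called higher and 1 lower. CLEC2B (AICL), which encodes the ligand of the activating receptor NKp80, had 254 and 536 reads, 2.23-fold higher (1.92 to 2.60). Of the CLEC2B exon length, 18.2% lies opposite other genes. ICAM1, which encodes a ligand of the integrin LFA-1 and holds killer cells to their target, had 57 and 26 reads, 2.05-fold lower (1.28 to 3.44), and 23.6% of its exon length lies opposite another gene. ICAM1 reached 50 reads only in the untreated library, and its call was lost with a pseudocount of 2 reads (log2 ratio -0.997) and with a minimum of 100 reads. Of 11 other inhibitory ligands with enough reads, 3 were called lower and 0 higher, beside 10.3% and 6.72% of all genes tested. CD24, which encodes a ligand of the inhibitory receptor Siglec-10, had 18747 and 1230 reads, 14.4-fold lower (13.6 to 15.3). CD24 has near-identical pseudogene copies, and how reads common to them were assigned is not known. TNFRSF14 (HVEM), which encodes the ligand of BTLA, had 203 and 70 reads, 2.73-fold lower (2.08 to 3.66), and 13.4% of its exon length lies opposite other genes. CDH1, which encodes E-cadherin, a ligand of KLRG1, had 933 and 23 reads. HLA-E, the ligand of the inhibitory receptor NKG2A, had 2113 and 3268 reads, a log2 ratio of 0.71.

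The shedding list held proteases that release MICA, MICB, ULBP proteins or other ligands from the surface, and PDIA6 and TIMP3, which are not proteases. Of its 6 genes with enough reads, ADAM17 (874 and 1778 reads, 2.15-fold) and MMP14 (719 and 1432 reads, 2.10-fold) were called higher. Of the ADAM17 exon length, 13.6% lies opposite other genes. TIMP3, which encodes an inhibitor of ADAM17, was called lower (2483 and 231 reads, 10.2-fold). Over all genes tested, 6.72% were called higher and 10.3% lower. ADAM10 and PDIA6, an isomerase linked to MICA shedding, had log2 ratios of -0.51 and -0.57. Surface and shed protein were not measured.

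Among the regulators of PD-L1 protein, 0 of 8 were called, with CMTM6, which keeps PD-L1 at the surface, at a log2 ratio of -0.06. Of 14 genes linked to CD274 transcription, 3 were called higher and 0 lower, beside 6.72% and 10.3% of all genes tested. They were the AP-1 gene JUN (1523 and 3759 reads, 2.61-fold), EPAS1, which encodes HIF-2 alpha (945 and 2027 reads, 2.26-fold), and the NF-kB gene RELA (2083 and 4000 reads, 2.03-fold). RELA was under 2-fold with the size factors of DESeq2 (log2 ratio 0.98) and upper quartile scaling (0.95). The interferon route had JAK2 at 0.67 and IRF1 at -0.48 on the log2 ratio scale. IFNGR1 (0.16), IFNGR2 (-0.09), JAK1 (0.12) and IRF2 (0.07) had smaller shifts. Of 12 regulators of NKG2D ligands, ATF4 (2177 and 5763 reads, 2.80-fold), which can induce ULBP1, was called higher. The genes called lower included CHEK2, which encodes a DNA damage kinase (201 and 86 reads, 2.21-fold). ATM and ATR had log2 ratios of -0.19 and -0.12, and HSF1, which encodes the main heat shock factor, had 0.86.

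**Figure D5:**
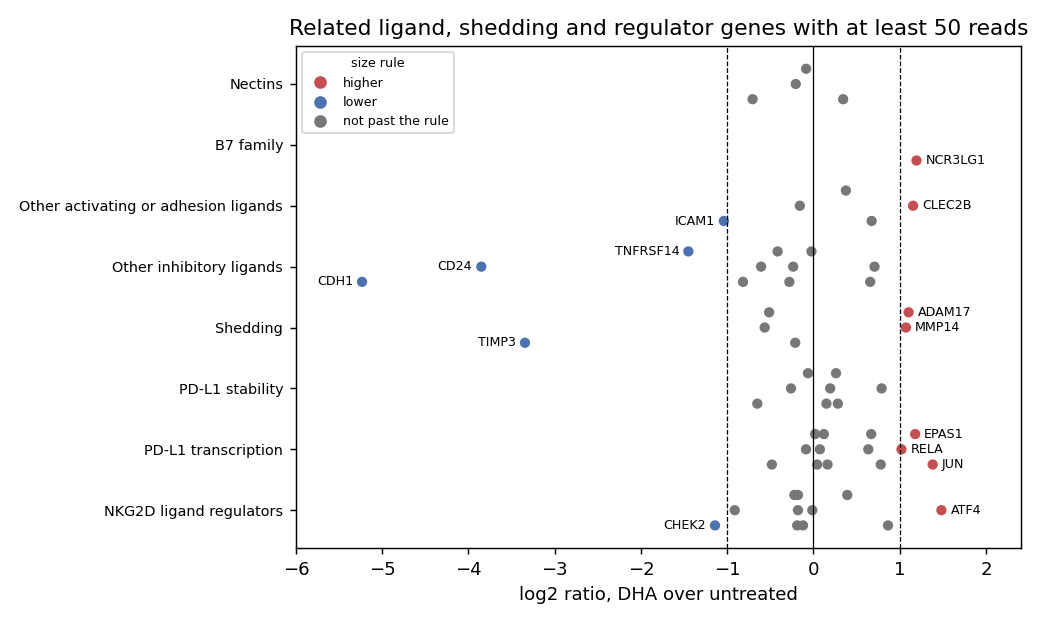
Each point is a gene of 8 lists of related ligands, proteases and regulators with at least 50 reads in a library, plotted by its log2 ratio, DHA over untreated (horizontal axis), with called genes named and dashed lines at 2-fold; some genes of the lists are not plotted. The genes called lower reach -5.23 (CDH1), and those called higher reach 1.48 (ATF4).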

How the data were processed

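RNA-seq counts of 1 untreated and 1 DHA library were used. The authors deposited whole-number read counts per gene, not normalized, beside the length of each gene. RNA preparation used Trizol and an Illumina TruSeq kit, per the labels' protocols. For the aligner, the counter and the use of strand nothing is given in the sources used here. The submitters' processing notes list mm8, and the protocol text names retina, but all 58735 rows had the identifiers, coordinates and exon lengths of human GENCODE 29 (GRCh38).

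Counts were scaled by TMM (edgeR 4.0.16, R 4.3.3), with factors of 0.996 and 1.00. Ratios used a pseudocount of 0.5 reads, and 95% intervals were exact Clopper-Pearson bounds on the DHA share of a gene's reads, turned into ratios. RPKM used the deposited length and no pseudocount. All 10 ligand genes are named, with up to 4 called genes of each list and the highest receptor counts. Further genes (the RAET1 genes, PDCD1LG2, NECTIN1, NECTIN3, CADM1, HLA-E, ADAM10, PDIA6, CMTM6, IFNGR1, IFNGR2, JAK1, JAK2, IRF1, IRF2, ATM, ATR, HSF1, VTCN1, CD80, CD86 and the markers) were named after their values were seen. Some list genes are not reported here. Members and lists were chosen with earlier results of these data known. Alternatives were other scalings (among them DESeq2 1.42.0 size factors), pseudocounts, read minimums, fold thresholds, intervals and trend removal.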

Additional observations from a re-analysis of the deposited data

How the results depend on the processing

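No paired analysis was possible because each group has 1 library, and for the same reason no library could be left out. MICA and ULBP2 were called higher and VSIR lower under every scaling and pseudocount tried and with the trend on gene length removed, with log2 ratios of 1.49 to 1.72, 1.502 to 1.85 and -1.36 to -1.28. These ranges include a correction for both gene length and transcript GC content, added after seeing the data. With DESeq2 size factors and with upper quartile scaling, 2 ligand genes were called higher, since PVR (0.96 and 0.94) and CD274 (0.97 and 0.94) fell under 2-fold. Over all genes tested, 5.99% and 5.7% were called higher under these scalings. A pseudocount of 2 reads left CD274 at 0.97. At 3-fold, 0 ligand genes were called higher and 0 lower, beside 1.8% and 4.6% of all genes tested. With a minimum of 500 reads 0 of 6 were called lower, because VSIR was no longer tested, beside 5.8% of all genes. The median log2 ratio of the ligand genes was 0.41 to 0.81 over the alternatives run for it.

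Of 15616 genes with at least 10 reads, 1297 (8.3%) were called higher and 2126 (13.6%) lower. With a minimum of 500 reads, 431 (6.6%) and 379 (5.8%) of 6551 genes were called. Among the 12064 genes with 50 reads, 2284 (18.9%) and 2320 (19.2%) were called at 1.5-fold, and 219 (1.8%) and 556 (4.6%) at 3-fold. RELA (0.98 and 0.95) dropped out with DESeq2 size factors and upper quartile scaling, leaving 2 genes linked to CD274 transcription higher, against 3. Of the 61 related list genes with 50 reads, 16 were higher and 11 lower at 1.5-fold, and 0 and 3 at 3-fold. Of the 46 with 500 reads, 8 were higher and 4 lower. Whether these differ from the shares of all genes was not tested. ICAM1 dropped out with a pseudocount of 2 reads and with a minimum of 100 reads, leaving 0 adhesion ligands lower. With 10 reads, 5 inhibitory ligands were lower, against 3. Depth limits CD274 most, at 26 and 50 reads.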
